A study of Mus musculus with 4 samples.

Results

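The genes described here are 9 genes of the unfolded protein response of the endoplasmic reticulum (ER), namely Hspa5, Hsp90b1, Hyou1, Sdf2l1, Dnajb9, Creld2, Manf, Herpud1 and Xbp1, among 32285 genes measured. They were chosen by symbol, and each symbol matched 1 row of the gene tables in all 4 sections. The sections were mouse livers measured with Visium, a slide-based assay that captures messenger RNA under an array of barcoded spots and counts it as unique molecular identifiers (UMIs). Of the 4 sections, 2 came from STAM, a metabolic liver cancer model with fatty, inflamed liver and diabetes, labelled STAM16w and STAM20w. The other 2 came from DEN+CCl4, a fibrotic liver cancer model made with diethylnitrosamine, which damages DNA, and the toxin carbon tetrachloride, labelled DEN22w and DEN30w. No untreated liver was among the sections, the labels give no dose, diet, strain or sex, and w was read as weeks, without a statement of whether weeks count age or time since treatment. The study asked about the surroundings of Mycn-expressing tissue in liver tumour development.

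The ER folds the proteins that a cell secretes or places in membranes, and hepatocytes, which secrete most plasma proteins, carry much of it. When unfolded protein builds up, the chaperone BiP (Hspa5) leaves the sensors IRE1, PERK and ATF6, and the factors XBP1, ATF4 and cleaved ATF6 raise the transcription of chaperones, folding enzymes and the machinery of ER-associated degradation (ERAD). IRE1 activates XBP1 by splicing its messenger RNA, a step that 3' UMI counts do not show, so the Xbp1 level here is that of spliced and unspliced RNA together.

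ATF6 with NF-Y, and XBP1, bind ER stress elements in promoters of such genes, and the promoters are shown because such elements are the known route by which these factors act on Hspa5 and its relatives. RefSeq promoter windows (GRCm38.p6, the assembly of mm10, 250 bases before to 50 bases after the annotated start) were at hand for 7 of the 9 genes, all but Hyou1 and Manf. The ER stress element was searched as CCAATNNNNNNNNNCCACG, the ER stress element II as ATTGGNCCACG and the UPR element as TGACGTGG, each on both strands. The 250 bases before the start of the 4 genes with a match follow, 5' to 3' on the strand of the gene, with matches in capitals.
Hspa5: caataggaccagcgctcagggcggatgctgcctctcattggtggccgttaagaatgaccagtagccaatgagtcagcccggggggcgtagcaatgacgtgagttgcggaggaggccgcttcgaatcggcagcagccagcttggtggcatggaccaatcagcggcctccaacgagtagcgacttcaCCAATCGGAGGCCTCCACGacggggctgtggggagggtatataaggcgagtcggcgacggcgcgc
Hsp90b1: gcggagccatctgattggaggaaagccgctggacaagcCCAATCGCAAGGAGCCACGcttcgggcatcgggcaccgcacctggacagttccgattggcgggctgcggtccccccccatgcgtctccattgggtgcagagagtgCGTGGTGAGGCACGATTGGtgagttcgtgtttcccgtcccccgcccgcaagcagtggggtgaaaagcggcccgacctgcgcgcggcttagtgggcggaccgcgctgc
Creld2: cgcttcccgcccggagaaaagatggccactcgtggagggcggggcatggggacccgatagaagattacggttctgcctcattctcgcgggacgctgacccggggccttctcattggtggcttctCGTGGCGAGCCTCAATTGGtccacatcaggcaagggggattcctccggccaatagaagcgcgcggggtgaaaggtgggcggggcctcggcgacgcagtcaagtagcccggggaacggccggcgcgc
Herpud1: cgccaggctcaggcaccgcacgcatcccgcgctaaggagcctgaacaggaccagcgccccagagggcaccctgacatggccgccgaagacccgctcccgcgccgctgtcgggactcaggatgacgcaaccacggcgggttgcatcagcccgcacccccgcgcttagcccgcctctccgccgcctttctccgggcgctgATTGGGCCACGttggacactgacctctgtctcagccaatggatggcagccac

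The Hspa5 window lies at chr2:34771840-34772089 on the plus strand, and its element, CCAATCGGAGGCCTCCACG, covers bases -65 to -47, counted from -1 just before the start. Hsp90b1 (chr10:86705445-86705694, minus strand) held 2 elements, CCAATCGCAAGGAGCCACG at -212 to -194 and, on the opposite strand, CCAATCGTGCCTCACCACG at -107 to -89. In Creld2 (chr15:88819396-88819645, plus strand) the element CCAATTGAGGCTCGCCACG lay on the opposite strand at -126 to -108. Herpud1 (chr8:94386179-94386428, plus strand) held the ER stress element II, ATTGGGCCACG, at -52 to -42. The first pattern occurred in 39 of 32851 promoter windows (0.119%), 3 of them of these genes, the second in 12 (0.0365%), 1 of them Herpud1, and the UPR element in 222 (0.676%), none of them of these genes. The patterns share the letters CCACG or its reverse complement, and no match of one overlapped a match of another in these genes. The windows of Sdf2l1, Dnajb9 and Xbp1 held none of the 3 letter patterns, which says nothing of which factors bind there.

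After spots under 500 UMIs or 250 genes were left out, 2080, 2833, 2746 and 2968 spots remained in STAM16w, STAM20w, DEN22w and DEN30w, with 20700642 to 40008457 UMIs per section. Levels are given as CPM, UMIs of a gene scaled to a total of 1e+06 UMIs in a section or group of spots, and are not set against each other between genes. All 6 hepatocyte markers were found in each section, and their summed level was 35149 and 47470 CPM in STAM16w and STAM20w and 81473 and 69095 CPM in DEN22w and DEN30w. A spot covers more than a single cell, so a lower level from fewer cells of a type and from less RNA per cell cannot be told apart. Each model and time had 1 section, nothing says that sections came from separate animals, and p-values measure only the spread between these sections, with model, time and animal together.

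The 3 large lumenal chaperones were lower in both STAM sections than in both DEN+CCl4 sections. Hspa5, which encodes BiP, the ER member of the HSP70 family and the repressor of all 3 stress sensors, had 383 and 834 CPM in STAM16w and STAM20w, against 1129 and 1972 CPM in DEN22w and DEN30w. Hsp90b1, which encodes the ER HSP90 chaperone GRP94, had 557 and 641 CPM in the STAM sections, against 960.1 and 1479.8 CPM in the DEN+CCl4 sections. Hyou1, which encodes GRP170, a large HSP70 relative that releases ADP from BiP, had 16.3 and 27.0 CPM in the STAM sections, against 70.2 and 144 CPM in the DEN+CCl4 sections. For each of the 3 the higher STAM section stayed under the lower DEN+CCl4 section. Averaged over 2 sections, Hyou1 stood at 21.7 ± 7.56 CPM in STAM and 107 ± 51.9 CPM in DEN+CCl4 (SD, n = 2 each).

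Of the genes whose products work with or beside the chaperones, 3 showed the same order and Dnajb9 did not. Sdf2l1, a lumenal partner of BiP, had 15.3 and 20.8 CPM in STAM16w and STAM20w, against 53.6 and 109.9 CPM in DEN22w and DEN30w. Creld2, an ER protein with a disulfide isomerase-like motif that stressed cells secrete, had 43.6 and 129 CPM in the STAM sections, against 178 and 405 CPM in the DEN+CCl4 sections. Manf, a small ER protein secreted under stress, had 106 and 362 CPM in the STAM sections, against 373 and 598 CPM in the DEN+CCl4 sections, and the counting intervals of STAM20w (356 to 368 CPM) and DEN22w (365 to 381 CPM) overlapped. Dnajb9, a J-domain co-chaperone of BiP that also restrains IRE1, had 36.6 and 109.6 CPM in the STAM sections, against 59.1 and 116 CPM in the DEN+CCl4 sections. Its order thus followed time within a model more than model, with the 2 later sections uppermost.

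Herpud1, an ER membrane protein that assembles the ERAD ubiquitin ligase complex, had 337 and 251 CPM in STAM16w and STAM20w, against 787 and 918 CPM in DEN22w and DEN30w, with no overlap. Xbp1, the transcription factor of the IRE1 arm, varied least: it had 124 and 154 CPM in the STAM sections, against 137 and 170.5 CPM in the DEN+CCl4 sections, which interleave. Both STAM sections thus lay under both DEN+CCl4 sections for 7 of the 9 genes, where 39.2% of the 14417 genes tested between models had that order in CPM. With TMM factors, a scaling added after the data were seen, it was the same 7 genes and 29.1% of genes.

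**Figure D1:**
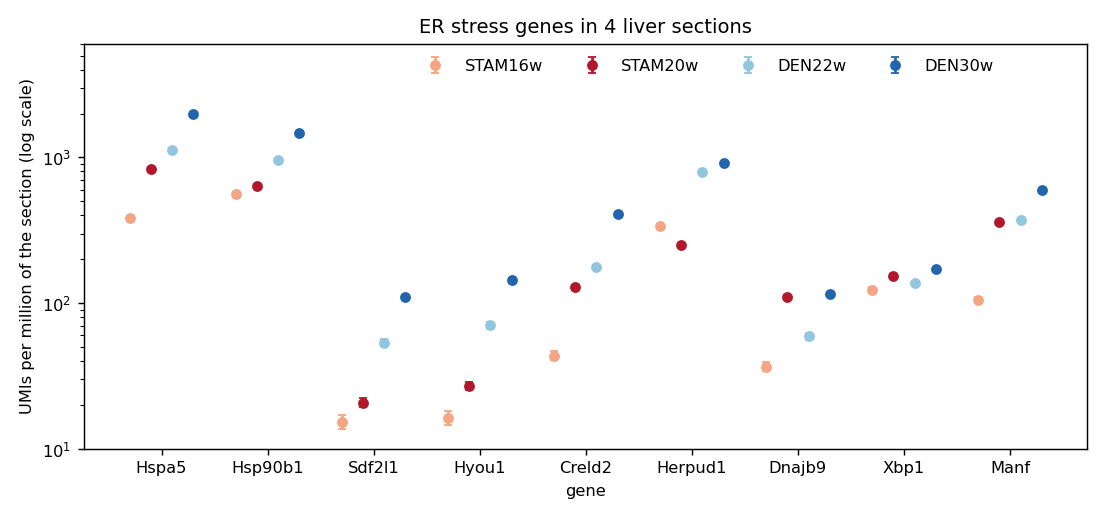
Level in CPM (vertical axis, log scale) for each of the 9 genes in STAM16w, STAM20w, DEN22w and DEN30w; bars are exact 95% Poisson intervals of counting error. Both STAM sections lie under both DEN+CCl4 sections for 7 genes, an order that 39.2% of all genes tested share, while Dnajb9 and Xbp1 overlap.

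In the edgeR quasi-likelihood test of STAM against DEN+CCl4 over all 14417 genes tested, 0 of the 9 genes passed an adjusted p of 0.05, where 63 genes (0.437%) passed. The fitted log2 fold changes of STAM over DEN+CCl4 were -2.12 for Hyou1 (SE 0.38, edgeR adjusted p = 0.0748), -1.99 for Sdf2l1 (SE 0.34, edgeR adjusted p = 0.0718), -1.60 for Creld2, -1.35 for Herpud1, -1.19 for Hspa5, -0.91 for Manf and -0.85 for Hsp90b1. Dnajb9 had -0.10 and Xbp1 0.03, both within their SE. Their median was -1.19, with 8 of 9 below 0, against a median of -0.0016 over all genes tested. At an unadjusted p below 0.05 edgeR gave 6 of the 9, where it gave 3305 of the 14417 genes. DESeq2 called the same 6 (Hyou1, Sdf2l1, Herpud1, Creld2, Hsp90b1 and Hspa5) lower in STAM after adjustment, where it called 616 of the 14417 genes lower. Without the filter on low counts edgeR called 4 of the 9 lower, where it called 824 of 20484 genes lower. The hepatocyte markers, given above, were also lower in STAM, with a median log2 fold change of -0.53 and 1 of 6 above 0, and plasma cell genes had a median of -1.45 with 0 of 5 above 0. Immunoglobulin RNA was 38.8 and 86.2 CPM in STAM16w and STAM20w, against 22.9 and 915 CPM in DEN22w and DEN30w. The part of either cell type in these differences was not tested.

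Of the other ER genes, 0 were called between models in any of the lists examined. ER folding genes, 15 in number and covering the lectin chaperones calreticulin and calnexin and the disulfide isomerases, had a median of -0.26 with 3 of 15 above 0. The ERAD list had a median of -0.13 over 16 genes, the translocon list 0.09 over 14, and the sensors and their processing enzymes -0.15 over 8. Genes of the PERK branch and the integrated stress response had the opposite sign, with a median of 0.52 and 10 of 11 above 0. Lists for the cytosolic heat shock proteins and the immediate early genes had medians of -0.27 over 12 genes and 0.14 over 8.

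Within each model, the later section had the higher level of most of the 9 genes. Summed over the 9, the level was 2528 CPM in STAM20w and 1618 CPM in STAM16w, a ratio of 1.56 (log2 0.64, exact 95% interval 0.63 to 0.66). It was 5913 CPM in DEN30w and 3748 CPM in DEN22w, a ratio of 1.58 (log2 0.66, interval 0.65 to 0.67). With 1 section a side there is no replicate check, and the intervals cover counting error only. Other measures also differed between times. In STAM, mitochondrial RNA took 3.67% of UMIs in STAM20w and 2.10% in STAM16w, ribosomal protein RNA 7.39% and 4.33%, and macrophage markers had 332 and 129.5 CPM, neutrophil markers 67.8 and 12.5 CPM and hepatocyte markers 47470 and 35149 CPM. In DEN+CCl4, plasma cell genes had 44.3 CPM in DEN30w and 12.6 CPM in DEN22w, neutrophil markers 37.9 and 4.85 CPM, and hepatocyte markers 69095 and 81473 CPM, with mitochondrial RNA at 1.55% and 1.31%. Most of the plasma cell sum was Derl3, which is also an ERAD gene, with 37.1 CPM in DEN30w and 9.83 CPM in DEN22w. The part of these measures in the differences between times was not tested.

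In STAM, 5 of the 9 genes were at least 1.5 times higher in the later section, where 16.9% of genes at 10 CPM or more were. Manf was 3.43 times as high in STAM20w as in STAM16w, Dnajb9 2.99 times, Creld2 2.95 times, Hspa5 2.18 times and Hyou1 1.65 times. Sdf2l1 (1.36), Xbp1 (1.25) and Hsp90b1 (1.15) had smaller ratios, and Herpud1 stood lower in STAM20w, at 0.746 times its STAM16w level. In DEN+CCl4, 7 of the 9 were at least 1.5 times higher in the later section, where 7.73% of genes were. The ratios of DEN30w over DEN22w were 2.28 for Creld2, 2.05 for Sdf2l1, 2.05 for Hyou1, 1.96 for Dnajb9, 1.75 for Hspa5, 1.60 for Manf and 1.54 for Hsp90b1, with 1.24 for Xbp1 and 1.17 for Herpud1. Hspa5, Hyou1, Creld2, Dnajb9 and Manf were thus past 1.5-fold in both models, while the GRP94 gene Hsp90b1 and Sdf2l1 were past it in DEN+CCl4 and not in STAM; the difference between models was not tested. With TMM factors in place of UMI totals, 4 of the 9 passed in STAM, where 11.2% of genes did, and 5 in DEN+CCl4, where 4.76% did. On that scale Hyou1 in STAM (log2 0.57) and Manf (0.54) and Hsp90b1 (0.48) in DEN+CCl4 no longer passed, which left Hspa5, Creld2 and Dnajb9 past 1.5-fold in both models, and the sums were at log2 0.48 and 0.51. The median log2 ratio of the 9 genes was 0.73 in STAM and 0.80 in DEN+CCl4, against 0.14 and 0.08 over all genes at 10 CPM or more.

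**Figure D2:**
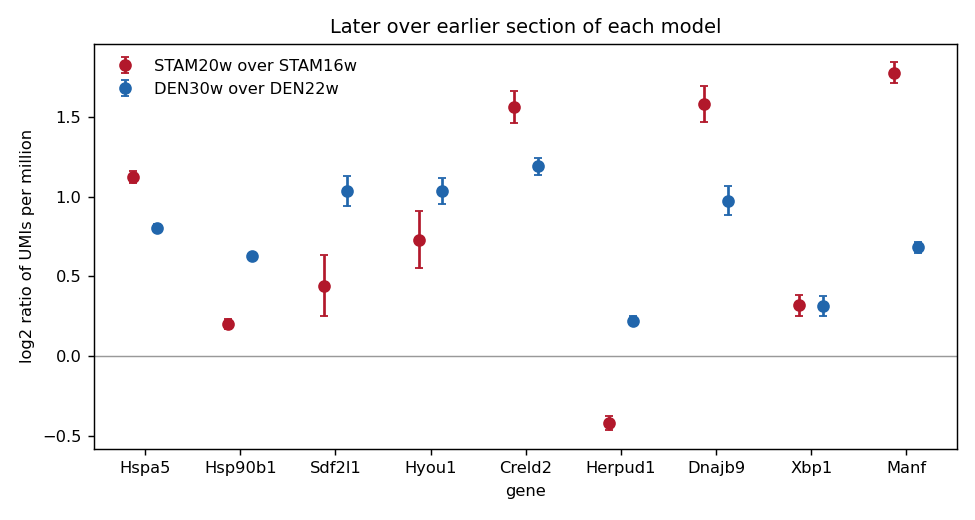
Log2 ratio of CPM (vertical axis) for STAM20w over STAM16w and DEN30w over DEN22w, for each of the 9 genes; bars are exact 95% binomial intervals of counting error. All 9 ratios are above 0 in DEN+CCl4 and 8 in STAM, where Herpud1 lies at -0.42.

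The other lists were counted by the same fold, in CPM. Of all genes at 10 CPM or more, 16.9% passed in STAM and 7.73% in DEN+CCl4. The genes named here were chosen after their values were seen. In the ER folding list, 3 of 15 genes in STAM and 1 of 15 in DEN+CCl4 were at least 1.5 times higher in the later section. Pdia4, a disulfide isomerase, was past it in both models, with 30.7 CPM in STAM20w and 18.2 CPM in STAM16w, and 107 CPM in DEN30w and 53.9 CPM in DEN22w. In the ERAD list, 2 of 15 genes in STAM and 4 of 16 in DEN+CCl4 passed, among them Syvn1, the HRD1 ubiquitin ligase that HERPUD1 serves, with 478 CPM in DEN30w and 171 CPM in DEN22w. The PERK sensor gene Eif2ak3 had 12.3 CPM in STAM20w and 5.41 CPM in STAM16w, and 16.8 CPM in DEN30w and 6.23 CPM in DEN22w. In the sensor list 2 of 7 genes in each model were at least 1.5 times higher, Eif2ak3 and Creb3l2, and Creb3l3, a liver factor of the same family as Creb3l2, was lower, with 363 CPM in STAM20w and 547 CPM in STAM16w. Of the PERK branch genes 5 of 9 in STAM and 3 of 7 in DEN+CCl4 passed, of the immediate early genes 5 of 7 and 3 of 6 (with 1 lower, Dusp1, at 48.1 CPM in DEN30w and 91.9 CPM in DEN22w), and of the translocon genes 6 of 14 and 0 of 14. The IRE1 gene Ern1 had 31.9 CPM in STAM20w and 41.1 CPM in STAM16w, and 38.4 CPM in DEN30w and 37.6 CPM in DEN22w.

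Each section was divided into 3 equal zones of spots by a zonation score, the level of 10 pericentral less that of 12 periportal hepatocyte markers, which used none of the 9 genes. Pericentral hepatocytes lie around the central vein and periportal ones around the portal tract. Of the 9 genes, 5 (Herpud1, Manf, Creld2, Hsp90b1 and Hspa5) were lower in the pericentral zone by edgeR with section as a block and 0 were higher, where 4.63% of the 13410 genes tested were lower.

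Herpud1 had 287 CPM in the pericentral and 398 CPM in the periportal zone of STAM16w, 185 and 310.1 CPM in STAM20w, 699 and 849.8 CPM in DEN22w, and 849 and 989.9 CPM in DEN30w. It was lower in the pericentral zone in 4 of 4 sections, with a fitted log2 fold change of -0.58 (SE 0.10, edgeR adjusted p = 0.00353). Hspa5 had 353 pericentral against 416 periportal CPM in STAM16w, 724 against 962 CPM in STAM20w, 1114 against 1141 CPM in DEN22w and 1866 against 2073 CPM in DEN30w, and a fitted value of -0.36 (SE 0.09, edgeR adjusted p = 0.0367). The Hspa5 difference was widest in STAM20w and within counting error in DEN22w. Hsp90b1 fell by 0.36 (edgeR adjusted p = 0.0342), with 516 pericentral against 608 periportal CPM in STAM16w, 546 against 737 CPM in STAM20w, 940.2 against 968 CPM in DEN22w and 1420.5 against 1555 CPM in DEN30w.

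Manf fell by 0.37 (edgeR adjusted p = 0.0250), with 306 pericentral against 421 periportal CPM in STAM20w and 374 against 375 CPM in DEN22w. Creld2 fell by 0.36 (edgeR adjusted p = 0.0435), with 103 pericentral against 155 periportal CPM in STAM20w, and 175.4 against 175.0 CPM in DEN22w. Neither gene thus differed between the outer zones of DEN22w beyond counting error. Sdf2l1 (-0.35), Hyou1 (-0.21), Dnajb9 (-0.20) and Xbp1 (-0.19) did not pass, with edgeR adjusted p between 0.0678 (Sdf2l1) and 0.346 (Hyou1). Hyou1 had 21.7 pericentral against 33.5 periportal CPM in STAM20w and 75.9 against 62.0 CPM in DEN22w, opposite orders.

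**Figure D3:**
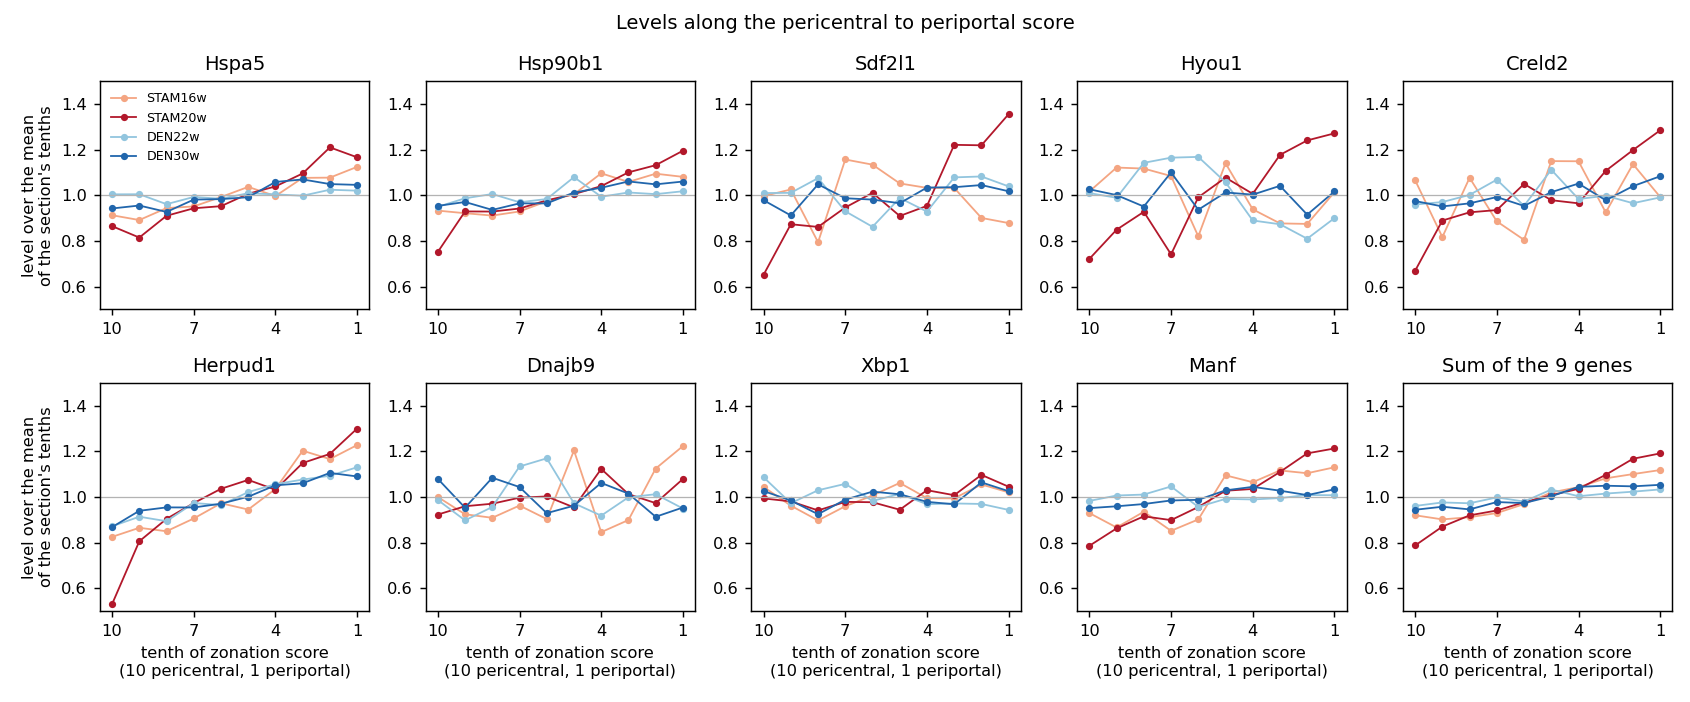
Level in each of 10 equal groups of spots along the zonation score of a section (horizontal axis, group 10, the most pericentral, at the left and group 1, the most periportal, at the right), over the mean of that section's groups (vertical axis), for each gene and their sum in the 4 sections. Herpud1 climbs towards the periportal end in every section, and in STAM20w it has 137 CPM in the most pericentral and 335 CPM in the most periportal group; Dnajb9 and Xbp1 show no common slope.

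The size of these zonal values depends on scaling, since the fit used TMM factors. On UMI totals, an alternative added after the data were seen, the median of all genes was 0.14 in place of -0.01, the median of the 9 genes -0.20 in place of -0.36, and Herpud1 alone was called (-0.43, edgeR adjusted p = 0.0273); no gene of the 9 changed sign. Without the 4 compact regions of STAM20w (823 spots, 293 of them pericentral and 332 periportal), also added after the data were seen, 5 were called; 3 of these regions are described below, and the other (66 spots) was led by Noct, Cox7a1 and Acmsd with a median zonation score of -1.75, while the region led by Cpe had a median score of 2.12, far on the pericentral side. Without immunoglobulin-rich and collagen-rich spots Creld2 did not pass and Sdf2l1 did. Without STAM20w Herpud1 and Manf were called, and without STAM16w, DEN22w or DEN30w Herpud1 alone, with its edgeR adjusted p between 0.00364 and 0.0202. The summed hepatocyte markers were also lower in the pericentral zone of 3 sections (31604 against 39794 CPM in STAM16w, 35849 against 58571 CPM in STAM20w and 79191 against 83258.5 CPM in DEN22w) and higher in DEN30w (69703.9 against 66963.1 CPM), and their part in the result was not tested. Of the 9 genes, 0 had a zonal difference that differed between STAM and DEN+CCl4, where 46 of 13410 genes (0.343%) did; edgeR and DESeq2 each gave 0 of the 9 at an unadjusted p below 0.05. Without STAM16w, Hyou1 was called in that test (-0.64, edgeR adjusted p = 0.0254).

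Of the folding, ERAD, translocon and sensor lists, 5 genes were called along this axis, each lower in the pericentral zone, where 4.63% of all genes were lower. Dnajb11, a BiP co-chaperone, fell by 0.40 on the log2 scale in the pericentral zone (edgeR adjusted p = 0.0142), the 1 call among 15 ER folding genes. Os9 (-0.36, edgeR adjusted p = 0.0223), a lectin of ERAD, and Edem1 (-0.30, edgeR adjusted p = 0.0498), a mannosidase-like ERAD factor, were the 2 calls of 16 ERAD genes, both lower. Ern1, which encodes IRE1, fell by 0.32 (edgeR adjusted p = 0.0285), the 1 call of 8 sensors, and Spcs2, a signal peptidase subunit, fell by 0.34 (edgeR adjusted p = 0.0282), the 1 call of 14 translocon genes. The fitted values of these 5 genes also rest on TMM factors, and those on UMI totals are not given here. Ern1 had 40.1 pericentral against 43.9 periportal CPM in STAM16w and 29.4 against 35.9 CPM in STAM20w. In DEN22w it had 37.3 against 38.6 CPM, and in DEN30w 35.6 against 40.2 CPM. Of the 11 PERK branch and integrated stress genes, 3 were called higher in the pericentral zone and 0 lower, where 3.97% of all genes were higher. The list as a whole had a median of -0.03 with 5 of 11 above 0. The 3 were Slc7a11, the cystine transporter, up by 2.84 (edgeR adjusted p = 0.00253), Nupr1, a stress-induced chromatin protein, by 1.57 (edgeR adjusted p = 0.00901), and Atf3, a stress-induced factor, by 0.83 (edgeR adjusted p = 0.0282). Slc7a11 had 48.6 pericentral against 3.91 periportal CPM in STAM20w and 1.67 against 1.65 CPM in STAM16w, and it was among the leading genes of the Cpe region of STAM20w described next. Nupr1 was higher in the pericentral zone in 4 of 4 sections, with 459.6 against 60.9 CPM in STAM20w and 9.77 against 5.18 CPM in DEN22w. Atf3 was higher there in 3 of 4, with 37.0 against 15.3 CPM in STAM20w and 4.17 against 5.72 CPM in STAM16w.

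Within sections, the 9 genes were most uneven in STAM20w. Over tiles of 10 or more spots, their summed level spanned 1718 to 3658 CPM in STAM20w, 2.13-fold, against 1.52-fold in DEN22w, 1.54-fold in STAM16w and 1.57-fold in DEN30w. The maps of the 4 sections show a broad bright band in STAM20w and finer mottling in the others.

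**Figure D4:**
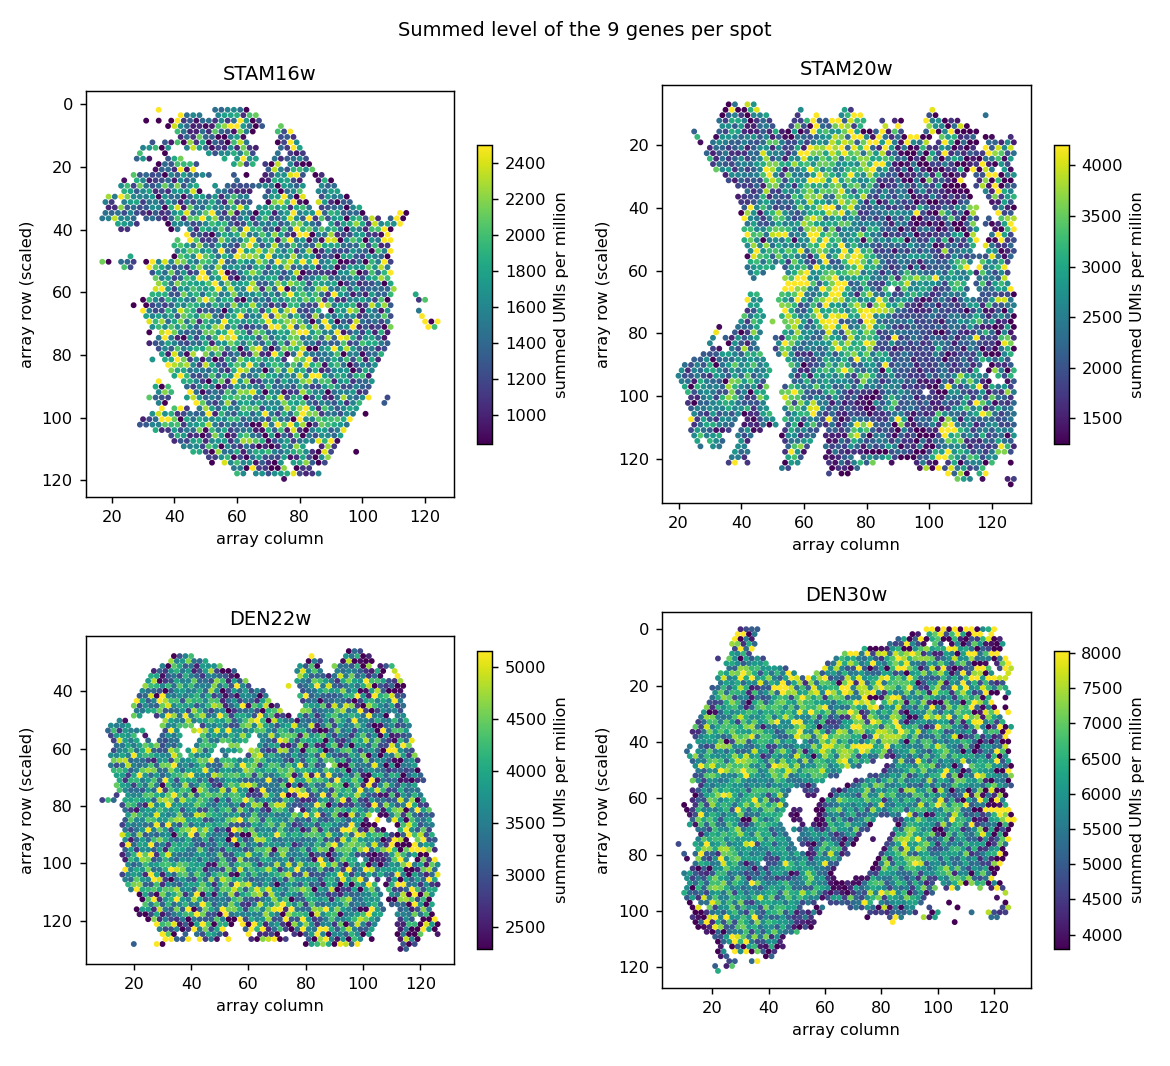
Summed CPM of the 9 genes in each spot (colour, scaled from the 5th to the 95th percentile of each section separately) at its position on the array (axes, array column and scaled array row) in STAM16w, STAM20w, DEN22w and DEN30w. The STAM20w section has a broad band of high spots beside a wide area of low ones.

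Spots were also grouped into regions by their expression, with the 9 genes and the listed stress genes left out of the grouping; the values that follow describe those regions and were not tested. In STAM20w, the region led by Ighg2b, Igkc, Cyp17a1, Ces3b and Sds (508 spots) had 3350 CPM of the 9 genes, against 2316 CPM in the rest of the section. Among 10 regions it held the highest Hspa5 (1094 CPM, interval 1071 to 1117), Hsp90b1 (869.6 CPM), Manf (487 CPM), Herpud1 (363 CPM) and Creld2 (203 CPM), and the highest Sdf2l1 and Hyou1. How many of all genes were highest in that region was not counted. Immunoglobulin RNA there was 196 CPM and hepatocyte markers 58615 CPM. The compact region led by Cpe, Slc7a11, Gpx2, Sp5 and Nkd1 (272 spots, 87.4% of contacts within the region) had 2018 CPM of the 9 genes, against 2632 CPM in the rest, with the lowest Herpud1 (137 CPM) and Hsp90b1 (492 CPM) of the section. The compact region led by Akr1c18, Cib3 and Gsta1 (264 spots) had 2015 CPM, against 2553 CPM in the rest, with the lowest Hspa5 (624 CPM), Sdf2l1 (11.9 CPM) and Manf (249.5 CPM) yet the highest Xbp1 (193 CPM). The compact region led by H19, Gm44427 and Afp (221 spots) had 2486 CPM, against 2532 CPM in the rest, with the highest Dnajb9 (131 CPM) and the lowest Creld2 (82.4 CPM).

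In the DEN+CCl4 sections, the lowest levels lay in regions led by haemoglobin and mitochondrial genes. In DEN30w that region (224 spots) had 4733 CPM of the 9 genes, against 6123 CPM in the rest. Among 5 regions of 50 spots or more it held the lowest Hspa5 (1561 CPM), Creld2 (250.4 CPM), Hsp90b1, Hyou1, Manf, Sdf2l1 and Xbp1. In DEN22w the corresponding region (132 spots) had 3302 CPM, against 3775 CPM in the rest. Among 4 regions it held the lowest Hspa5, Hsp90b1, Creld2, Herpud1 and Xbp1. Dnajb9 ran the other way: its highest level of each of the 2 sections was in that region, 145 CPM in DEN30w and 79.5 CPM in DEN22w. How many of all genes were lowest in these regions was not counted. Some of the ranks lay within counting error. Xbp1 in DEN22w had 129 CPM (interval 110 to 150) there and 134 CPM (127 to 140) in the region led by Pck1. In the haemoglobin-led regions of DEN30w and DEN22w, mitochondrial RNA took 3.98% and 3.34% of UMIs. Hepatocyte markers had 87780.5 and 98864.8 CPM there, the highest of each section. The median spot there had 23432.5 and 9218 UMIs. The part of these measures in the levels was not tested. The highest summed level of DEN30w, 6315 CPM, was in the region led by Etnppl, Saa2, Saa1, Sds and Pck1, with Hspa5 at 2113 CPM. In STAM16w the regions differed little, from 1476 CPM in the region led by mitochondrial genes to 1770.5 CPM in that led by Aldh1b1, Sds and Etnppl.

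Correlations over tiles differed from pair to pair. Over the 36 pairs of genes, the median Pearson correlation of log2(CPM + 1) over tiles was 0.06 in STAM16w (67 tiles), 0.26 in STAM20w (91), 0.11 in DEN22w (86) and 0.10 in DEN30w (95). Hspa5 and Hsp90b1 had r of 0.29 to 0.76 over the 4 sections, Hspa5 and Creld2 0.29 to 0.61, Hspa5 and Manf 0.33 to 0.71, and Hsp90b1 and Creld2 0.22 to 0.79. Dnajb9 and Xbp1 had negative r in 4 of 4 sections, -0.28 to -0.14. Tiles share their library, and the summed level had r of 0.07, 0.18, 0.52 and -0.15 with the depth of the tile in STAM16w, STAM20w, DEN22w and DEN30w, so these values are descriptions. In STAM16w Sdf2l1, Hyou1 and Dnajb9 had 317, 338 and 758 UMIs, few per tile, and in STAM20w Sdf2l1 and Hyou1 had 831 and 1081. In DEN22w Sdf2l1, Dnajb9 and Hyou1 had 1204, 1328 and 1578 UMIs. Weak correlations from such counts carry no information and lower the medians over pairs. In DEN30w Sdf2l1, Dnajb9 and Hyou1 had 3832, 4048 and 5009 UMIs, and the part of counting error in their correlations there was not tested.

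The genes whose tile pattern was most like the summed level, by mean r over the 4 sections among 1947 genes at 50 CPM or more in each, were H2-Q10 (0.52), Ndrg2 (0.49), Mug1 (0.49), Syvn1 (0.47), BC024386 (0.47), Pck1 (0.46), Cyp2d9 (0.46) and Fxyd1 (0.45). H2-Q10 encodes a secreted MHC class I protein of the liver, Mug1 a secreted protease inhibitor, and Pck1 the periportal enzyme of glucose production. The least like were mt-Co3 (-0.49), mt-Nd1 (-0.43) and mt-Cytb (-0.42), subunits of the respiratory chain encoded by mitochondria, and Rpsa (-0.42), a ribosomal protein.

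Stromal cells and plasma cells secrete collagen and antibody through the ER, so spots rich in their products were set against spots of like depth. Collagen-rich spots were the top 10% of a section by Col1a1, Col1a2 and Col3a1, 208 to 296 pairs a section. Creld2 fell by 0.44 on the log2 scale in collagen-rich spots (SE 0.11, edgeR adjusted p = 0.00706) and Hsp90b1 by 0.31 (SE 0.10, edgeR adjusted p = 0.0401), 2 of the 9 genes, where 3.89% of 10934 genes were lower; 0 of the 9 rose. Creld2 had 45.0 CPM in collagen-rich and 39.0 CPM in matched spots of STAM16w, 98.9 and 153 CPM in STAM20w, 168 and 199.8 CPM in DEN22w, and 339.7 and 417 CPM in DEN30w. It was thus lower in 3 of 4 sections. Hsp90b1 had 530.2 CPM in collagen-rich and 544 CPM in matched spots of STAM16w, 546 and 665 CPM in STAM20w, 881 and 973 CPM in DEN22w, and 1226 and 1485 CPM in DEN30w, lower in 4 of 4. The remaining 7 had fitted values between -0.28 (Herpud1, edgeR adjusted p = 0.0536) and -0.06 (Xbp1). DESeq2 called 0 of the 9, with 4 at an unadjusted p below 0.05, where 1009 of the 10934 genes were. EdgeR on UMI totals called Creld2 alone, and edgeR without STAM20w 0 of the 9. With matching also on the zone Creld2 alone was called (-0.42, edgeR adjusted p = 0.00716), and Hsp90b1 had -0.25 (edgeR adjusted p = 0.131). Periportal markers were lower in the collagen-rich spots, with 7751 against 8399 CPM in STAM16w, 6072 against 9098 CPM in STAM20w, 10561 against 14090.4 CPM in DEN22w and 9555 against 14471 CPM in DEN30w. Without DEN22w or DEN30w Creld2 alone was called. Stromal markers outside the rule were higher in the collagen-rich spots of each section (238 against 135 CPM in STAM16w, 660.2 against 219 CPM in STAM20w, 368 against 174 CPM in DEN22w and 679 against 239.7 CPM in DEN30w). So were macrophage markers (258 against 124 CPM in STAM16w, 773 against 256 CPM in STAM20w, 467 against 279.9 CPM in DEN22w and 703 against 261 CPM in DEN30w) and cholangiocyte markers (197 against 71.8, 527 against 164, 105 against 59.5 and 432 against 157 CPM in the same sections). Spp1 is in both the macrophage and the cholangiocyte list, so their sums are not independent. Immunoglobulin had 4580 against 608 CPM in DEN30w. The part of these cells in the result was not tested. Of the other lists, 0 of 15 folding, 0 of 14 translocon and 0 of 8 sensor genes were called by edgeR, while Derl3, an ERAD gene that the plasma cell list also holds, fell by 0.73 (edgeR adjusted p = 0.0381), the 1 call of 16 ERAD genes. Serpinh1, the collagen chaperone of the ER, rose by 1.37 (edgeR adjusted p = 6.13e-09) and Nupr1 by 0.56 (edgeR adjusted p = 0.00137), where 4.9% of all genes rose. Hspe1, a mitochondrial chaperonin gene, fell by 0.29 (edgeR adjusted p = 0.0457) and Zfp36, which encodes an RNA decay factor, by 0.38 (edgeR adjusted p = 0.0137).

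In immunoglobulin-rich spots, 0 of the 9 genes passed, where 46 of 10715 genes (0.429%) did. At an unadjusted p below 0.05 edgeR gave 2 of the 9 (Herpud1 and Hyou1, both lower), where it gave 956 of the 10715 genes. DESeq2 called 0 of the 9. The fitted values lay between -0.23 (Hyou1) and 0.07 (Sdf2l1). Immunoglobulin took 0.783% of UMIs in the rich spots of DEN30w and 0.0198% in their matched spots, against 0.0232% to 0.0633% in the rich spots of the other sections. There Mzb1, an ER chaperone of plasma cells, had 28.0 CPM in the rich and 4.27 CPM in the matched spots (59 and 9 UMIs), while Hspa5 had 1742 and 1968 CPM, Hsp90b1 1375 and 1564 CPM and Xbp1 192 and 181.5 CPM. The counting intervals of the DEN30w ratios lay below 0 for Hspa5 and Hsp90b1 and included 0 for Xbp1. Plasma cell genes, summed, had 84.80 CPM in rich and 51.65 CPM in matched spots of DEN30w, and 6.03 and 2.76 CPM in STAM20w. They were not higher in the rich spots of STAM16w (13.02 and 14.11 CPM) or DEN22w (16.26 and 16.78 CPM). Of these genes 1 was tested, with a fitted value of -0.30. Whether the rich spots held more plasma cells was not tested.

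Around Mycn-detected spots, 0 of the 9 genes passed, where 15 of 7697 genes (0.195%) did. Spots touching a spot with a Mycn UMI were set against distant spots of like depth, 59, 56, 65 and 78 pairs in STAM16w, STAM20w, DEN22w and DEN30w. The Mycn-detected spots themselves numbered 10, 10, 11 and 14 in the same sections. The fitted values were 0.18 for Xbp1 (SE 0.10), 0.15 for Manf (SE 0.07, unadjusted p = 0.0392 by edgeR, adjusted p = 0.796), and between -0.12 (Herpud1) and -0.01 (Creld2) for the others. Manf was the 1 gene of the 9 at an unadjusted p below 0.05 by edgeR, where 461 of the 7697 genes were, and DESeq2 gave 0 of the 9. Hspa5 had 375 CPM in neighbour and 441 CPM in distant spots of STAM16w, 787 and 769.98 CPM in STAM20w, 1138 and 1155 CPM in DEN22w, and 2003 and 2022 CPM in DEN30w, each pair within counting error. Of the other lists 1 gene was called, Nupr1 (1.66, edgeR adjusted p = 2.62e-31), with 118 CPM in neighbour and 34.8 CPM in distant spots of STAM16w, 625 and 157 CPM in STAM20w, 8.58 and 3.43 CPM in DEN22w, and 22.1 and 25.7 CPM in DEN30w. Its counting intervals excluded 0 in the STAM sections and included it in the DEN+CCl4 sections, and its DEN22w values rest on 5 and 2 UMIs. DESeq2 called 0 of the 7697 genes in this comparison, so Nupr1 was called by edgeR only. The neighbour and distant spots were not matched on zone. Periportal markers had 7423 CPM in neighbour and 8681 CPM in distant spots of STAM16w, 7120 and 8116 CPM in STAM20w, and 13332 and 14914.5 CPM in DEN22w. Pericentral markers had 6470 and 5282, 5425 and 5116, and 2955 and 2729 CPM in the same sections. The part of zone in the Nupr1 difference was not tested.

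**Figure D5:**
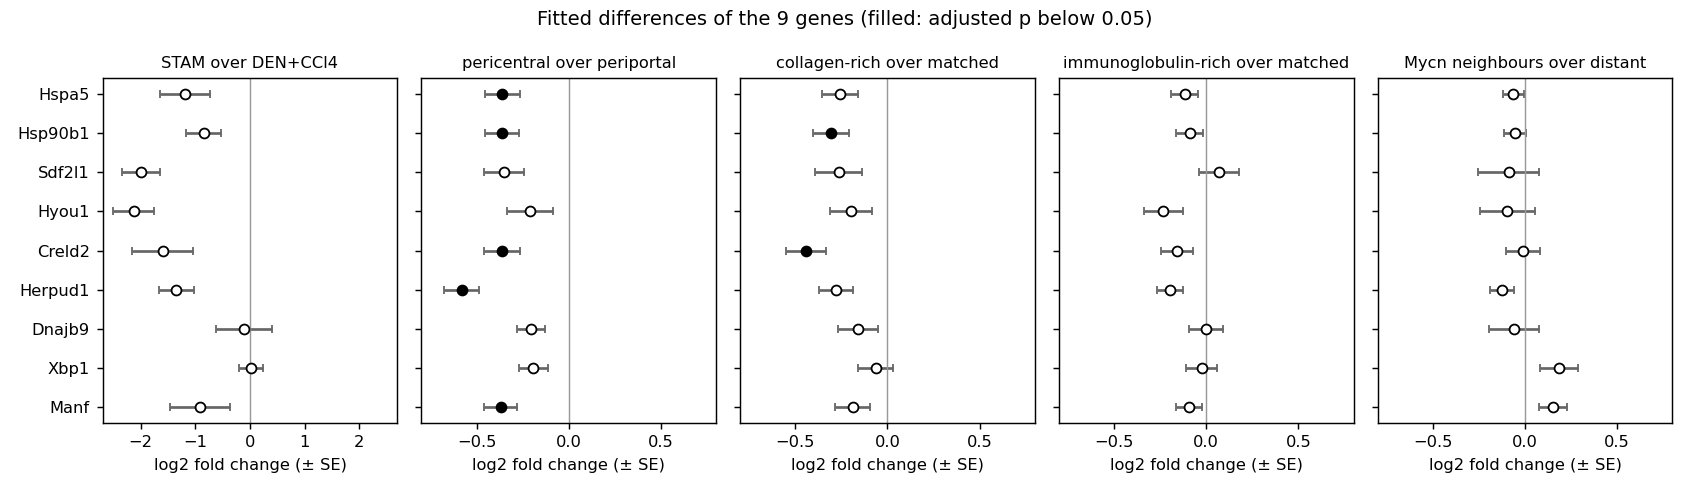
Fitted log2 fold changes (horizontal axis, bars are 1 SE) of the 9 genes in 5 comparisons, filled where the edgeR adjusted p was below 0.05; the first panel has a wider axis than the other 4. Filled points are the 5 genes lower in the pericentral zone and the 2 lower in collagen-rich spots, and no gene passed upwards.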

How the data were processed

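UMI counts for each spot were used as deposited; the authors made them with Space Ranger 1.3.1 and STAR on mm10, per the submitters' processing notes, with settings not given in the sources used here. The members and gene lists were chosen with earlier results of these data known. Spots with at least 500 UMIs and 250 genes were kept. The replicate is the section, so each class of spots gave 1 summed count per gene and section, and the quasi-likelihood test of edgeR 4.0.16 (R 4.3.3, TMM factors, filterByExpr, section as a block except between models) was run on these sums, with p adjusted by Benjamini-Hochberg over all genes tested. DESeq2 1.42.0 was an alternative. The fits were tested on simulated counts. The zonation score was the mean z-score of log(1 + UMIs per 10000) of pericentral less periportal markers; spots within 0.1 of a zone's bound numbered 123 to 255 per bound. Immunoglobulin-rich and collagen-rich spots (top 10% of a section) and Mycn neighbours were matched on UMI total within 0.1 log10. Regions were Leiden clusters (resolution 0.6, 2000 variable genes, 30 components, 15 neighbours). Tiles measured 6 rows by 12 columns. Intervals, exact Poisson for levels and exact binomial for ratios, are at 95% and cover counting error only. All 9 genes passed the filter on low counts in each test. Named genes were all members, up to 4 called genes of each list by p, and the 8 most and 4 least alike genes over tiles; genes of the other lists named between times were chosen after their values were seen. Sections shared 1635 to 2091 spot barcodes, as the arrays have the same layout. No image or tumour annotation was used here. How reads of near-identical genes were assigned is not given in the sources used here, so values of immunoglobulin, haemoglobin and Hspa1b are uncertain. Ddit3 is listed under 2 identifiers, of which 1 held 0 UMIs, and was left out of the lists.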

Additional observations from a re-analysis of the deposited data

Results flagged for a closer look

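Herpud1 moved in opposite directions between times in the models: its log2 ratio of later over earlier section was -0.42 in STAM and 0.22 in DEN+CCl4, a difference of -0.644. Each side is 1 section against 1, so the difference was not tested. Hsp90b1 was lower next to Mycn-detected spots than in distant spots in both STAM sections (log2 ratios -0.12 in STAM16w and -0.16 in STAM20w) and higher in both DEN+CCl4 sections (0.09 in DEN22w and 0.01 in DEN30w). The STAM mean less the DEN+CCl4 mean was -0.192 on the log2 scale, the difference was not tested, and the counting interval of each ratio included 0.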

How the results depend on the processing

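The settings added after the data were seen are UMI totals in place of TMM in the fits, TMM factors for the order of the sections and the zones without compact regions; the others were planned, and the cause of a change was not tested. Of the single-gene values in the tested comparisons, 525 kept direction and side of the threshold, 39 lost a call, 16 gained one and 32 changed sign. Of the genes called between models (63), DESeq2 gave 1513, no filter on low counts 1872, UMI totals 14, and leaving out 1 section 2 to 922; of the 9 genes these gave 6, 4, 0, and 0 in each. For the pericentral zone (1154 genes, 5 of the 9), DESeq2 gave 721 genes, no filter 1845, leaving out 1 section 585 to 1230 genes and 1 to 2 of the 9, narrower zones 2 of the 9, and UMI totals 1 of the 9. The fit with no replicate block gave 0 genes and 0 of the 9 there, and also 0 in the immunoglobulin-rich, collagen-rich and Mycn neighbour comparisons, with 356, 48, 328 and 31 genes at an unadjusted p below 0.05 by edgeR in the zonal, immunoglobulin-rich, collagen-rich and Mycn comparisons; the block pairs spot classes of the same section. For the zonal difference between models (46 genes), DESeq2 gave 15, no filter 553, UMI totals 78, narrower zones 17, no immunoglobulin-rich or collagen-rich spots 13, no compact regions 135, and leaving out 1 section 3 to 832 genes and 0 to 1 of the 9. For immunoglobulin-rich spots (46), DESeq2 gave 8, no filter 141, the top 5% 20 and leaving out 1 section 21 to 77. For collagen-rich spots (961 genes, 2 of the 9), DESeq2 gave 248 genes and 0 of the 9, UMI totals and matching on zone 1 of the 9 each, and leaving out 1 section 388 to 1060 genes and 0 to 2 of the 9. For Mycn neighbours (15), DESeq2 gave 0 (36 genes and 0 of the 9 at an unadjusted p below 0.05) and leaving out 1 section 4 to 22. The summed log2 ratio between times was 0.48 with TMM, 0.58 as a median over spots and 0.66 without immunoglobulin-rich and collagen-rich spots in STAM, and 0.51 with TMM and 0.70 as a median over spots in DEN+CCl4; genes whose median over spots was 0 have no such value.

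Changes of sign were all in values that did not pass. Between models Xbp1 had -0.14 on UMI totals and -0.085 to 0.11 without 1 section, and Dnajb9 -1.02 to 0.42. In the zonal difference between models the ranges without 1 section were -0.22 to 0.020 (Hspa5), -0.25 to 0.012 (Hsp90b1), -0.51 to 0.31 (Sdf2l1), -0.64 to 0.24 (Hyou1), -0.45 to 0.085 (Creld2) and -0.066 to 0.15 (Xbp1, with -0.10 on UMI totals); Dnajb9 had 0.020 with no filter. In immunoglobulin-rich spots Sdf2l1 had -0.027 when matched on zone, Dnajb9 0.057 on UMI totals, 0.0033 over all spots, 0.070 in the top 5%, 0.055 matched on zone and -0.10 to 0.079 without 1 section, and Xbp1 0.027 on UMI totals, 0.0047 matched on zone and -0.11 to 0.089 without 1 section. In collagen-rich spots Xbp1 had 0.062 on UMI totals and 0.061 in the top 5%. Next to Mycn-detected spots Creld2 had 0.0029 by DESeq2, 0.011 on UMI totals, 0.0059 with no replicate block and -0.047 to 0.060 without 1 section, and Dnajb9 -0.25 to 0.10. Where a section was left out between models, 1 side held 1 section, assumed to vary like the other side. Depth limits Sdf2l1 and Hyou1 most, with 317 and 338 UMIs in STAM16w.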

Other observations

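A single spot of STAM20w held the highest summed level of the 9 genes among the 2623 spots of that section with 2000 UMIs or more, and it was looked at because of that value. It lay in the compact region led by Cpe, Slc7a11 and Gpx2, whose level was low, and its 247 UMIs of the 9 genes among 35433 gave 6971 CPM (interval 6129 to 7897). The spot with the next highest level had 6733 CPM, within that interval, so the top spot did not stand alone. Its 6 touching spots had 1684 to 2791 CPM, the median spot of the section had 2408 CPM, and the 95th percentile was 4101 CPM. Creld2 had 51 UMIs there, 1439 CPM against 82.8 CPM in the other 271 spots of the region. Hsp90b1 had 78 UMIs (2201 CPM against 483 CPM), Hspa5 63 (1778 CPM against 721 CPM), Manf 35 (988 CPM against 282 CPM) and Sdf2l1 8 (226 CPM against 13.4 CPM). Herpud1 had 5 UMIs (141 CPM against 137 CPM). Hyou1 had 0 UMIs, which cannot be read at its 20.7 CPM in the rest of the region. Among genes with at least 20 UMIs in the spot, those with the largest fold over the rest of the region were Creld2 (17.4), Ddit3 (5.96, 33 UMIs), which encodes the stress factor CHOP, Hsp90b1 (4.56), the disulfide isomerase gene Pdia6 (3.66), Manf (3.51), the chaperone gene Calr (2.93), Ppib (2.57), Hspa5 (2.47), the translocon gene Ssr4 (2.39) and Rpl5 (1.93). In the other sections the top spots rested on 14 to 27 UMIs of the 9 genes among 2281 to 3525 UMIs. At that depth only abundant genes, such as those of plasma proteins and mitochondria, reached 20 UMIs. Their lists therefore cannot be set against that of the STAM20w spot.

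Heat shock genes, all but Serpinh1 serving protein folding outside the ER, were also higher at the later times: 7 of 11 at 10 CPM or more in STAM and 7 of 12 in DEN+CCl4 were at least 1.5 times higher. Of all genes at 10 CPM or more, 16.9% were in STAM and 7.73% in DEN+CCl4. Hspa8 had 2014 CPM in STAM20w and 573 CPM in STAM16w, and 2013 CPM in DEN30w and 1476 CPM in DEN22w, which is under 1.5-fold in DEN+CCl4. Hspa1b had 22.6 CPM in STAM20w and 6.57 CPM in STAM16w, and 99.5 CPM in DEN30w and 29.1 CPM in DEN22w. These genes were chosen after their values were seen.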
